A study of Mus musculus with 6 samples.

Results

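The cytosolic and mitochondrial heat shock chaperones were followed here through 6 lists of ChIP-seq peaks from primary neural stem cells. They are 10 genes, chosen by name: Hspa8, Hsp90aa1, Hsp90ab1, Hsph1, Hspa4, Dnaja1, Dnajb1, Hspd1, Hspe1 and Hsf1. A peak belonged to one of them when the deposited annotation gave that gene as the one with the nearest transcription start site (TSS). By this rule 18 of 97783 listed peaks did, and they fell on 7 of the 10 genes. Dnaja1, Dnajb1 and Hspe1 had none in any list. Single lists named from 2.67% to 46.4% of all protein-coding genes. The share named in any of the 6 lists was not computed, so 7 of 10 has no background here.

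Heat shock proteins fold new proteins, refold damaged ones and hold unfolded ones back from aggregation. In the cytosol the Hsp70 proteins bind exposed stretches of a client, J-domain partners deliver the client and drive ATP hydrolysis, exchange factors reload ATP, and Hsp90 matures kinases and receptors handed on to it. In mitochondria a barrel-shaped chaperonin and its lid enclose a protein while it folds. Hsf1, the main heat shock transcription factor, turns many of these genes on under stress by binding heat shock elements, inverted repeats of GAA and TTC spaced by a pair of bases, while Hspa8 and Hsp90ab1 are also expressed strongly without stress.

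The cells were cultured from newborn mouse cortex with EGF and bFGF, and each of the 6 groups had 1 library. Chd4, the ATPase of the NuRD chromatin remodelling complex, was precipitated from Ctrl cells (wild type, growth medium), iKO cells (genotype given as mutant, 4-OH-TAM in the medium), siSCR cells and siSeh1 cells (both wild type, growth medium). Seh1, a nucleoporin, was precipitated in Ctrl cells (wild type, growth medium) and through a flag tag (Seh1-flag; the title has iKO, the genotype field has wild type, and the medium held 4-OH-TAM). The names are read here as deletion of Seh1 (iKO), its silencing (siSeh1) and a silencing control (siSCR), which the labels do not spell out. Ctrl cells had no 4-OH-TAM, so the drug and the deletion cannot be told apart in iKO. The name of the Seh1-flag library in its file header begins with oe, which the labels do not explain. The sources used here do not give the promoter behind the recombinase or say whether animals were pooled. With 1 library a group no difference below has a replicate check and no p-value is given. Peak lists hold no expression, so they do not check the cell type.

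The lists differed in length. The Chd4 lists held 1154 peaks (Ctrl), 21294 (iKO), 2606 (siSCR) and 26935 (siSeh1), and the Seh1 lists 20833 (Ctrl) and 24961 (Seh1-flag). Sequencing depth is unknown, since the lists carry no read totals. In 5 lists each peak is 1 position with a score of unstated scale, used here only to rank peaks within a list (rank 1 is the highest score). The Seh1 Ctrl list holds intervals and scores of 0 throughout, so its peaks have no rank.

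The promoters that the results turn on are shown first. The Hspa4 promoter is shown because Chd4 peaks of iKO and siSeh1 both fell in it. Capitals mark the 59 bases from the iKO position to the siSeh1 position (chr11:53300430-53300729, minus strand, RefSeq, GRCm38.p6, the assembly that mm10 represents).
Hspa4: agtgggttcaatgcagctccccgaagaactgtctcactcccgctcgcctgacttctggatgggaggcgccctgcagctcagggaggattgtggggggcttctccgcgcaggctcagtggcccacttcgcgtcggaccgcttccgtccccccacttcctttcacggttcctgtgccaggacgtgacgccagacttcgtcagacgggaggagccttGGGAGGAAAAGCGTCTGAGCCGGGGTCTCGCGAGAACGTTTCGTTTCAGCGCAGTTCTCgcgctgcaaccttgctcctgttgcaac
The stretch in capitals has 7 CpG dinucleotides and 59.3% G and C. The window of 300 bases runs from 250 bases before to 50 after the start site. It held no match to any of the motifs searched.

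The promoters of Hsph1 and Hspe1 are shown because both carry a heat shock element of 3 units, and a Chd4 peak was listed in the first (siSeh1) while no list had a peak in the second. Capitals mark the matches to TTCNNGAA or GAANNTTC, which overlap where 3 units follow each other (chr5:149636287-149636586, minus strand, and chr1:55087898-55088197, plus strand, RefSeq, GRCm38.p6).
Hsph1: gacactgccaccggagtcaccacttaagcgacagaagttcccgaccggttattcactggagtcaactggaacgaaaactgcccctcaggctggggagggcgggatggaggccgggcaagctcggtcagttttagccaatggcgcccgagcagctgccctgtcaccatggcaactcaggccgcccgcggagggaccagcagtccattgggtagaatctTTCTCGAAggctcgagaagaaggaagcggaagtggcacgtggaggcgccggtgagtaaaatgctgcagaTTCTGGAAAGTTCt
Hspe1: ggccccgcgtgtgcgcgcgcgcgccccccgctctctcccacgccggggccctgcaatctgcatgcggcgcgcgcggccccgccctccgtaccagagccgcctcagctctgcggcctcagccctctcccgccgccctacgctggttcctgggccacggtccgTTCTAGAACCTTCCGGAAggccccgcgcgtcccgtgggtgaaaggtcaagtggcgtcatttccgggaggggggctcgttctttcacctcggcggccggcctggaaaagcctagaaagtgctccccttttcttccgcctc

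RefSeq promoter windows were matched for 6 of the 10 genes, several of them with more than 1 start site. Motifs were searched on both strands. Heat shock elements were read as TTCNNGAA or GAANNTTC (2 units) and as GAANNTTCNNGAA or TTCNNGAANNTTC (3 units, each of which also counts as 2 matches of 2 units). The others were the CCAAT box, the GC box with the letters CCGCCC, and a TATA box read as TATAAA. Windows of Hsph1, Hspd1, Hspe1 and Dnaja1 held the element of 2 units, against 13.7% of 21263 windows of protein-coding genes. This share and those below count windows, while a gene is named here if any of its windows matched. Dnaja1 held the element in 1 of 3 windows and Hspd1 in 1 of 2. The element of 3 units was in windows of Hsph1, Hspd1 and Hspe1, against 0.517% of all. The Hspd1 and Hspe1 matches are the same bases read from either strand, since these genes start head to head and their spans overlap. No window of Hspa4 or Dnajb1 held a heat shock element in this form, which says only that these letters are not in the windows. GC boxes (46.2% of all windows) were in windows of every matched gene but Hspa4, the CCAAT box (38.2%) was in those of Hspd1, Dnaja1, Hsph1 and Dnajb1, and the TATA box (12.6%) was in none. The windows were rich in G and C, from 58% at Hsph1 to 76% at Dnaja1, with a median of 56.3% over all windows.

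Hspa8 encodes the constitutive Hsp70 of the cytosol, which folds new chains and strips clathrin from vesicles, and it had the densest set of peaks (chromosome 9, 40801276 to 40805202, plus strand). In siSeh1 Chd4 was listed at its promoter with 2 peaks. One lay 7 bp before the start site, at 40801269 with a score of 3.79, and one 408 bp before it, at 40800868 with a score of 4.06. Both were of middling score, at ranks 8027 and 7471 of 26935. In Ctrl, siSCR and iKO no Chd4 peak lay within 1 kb of the start. Seh1-flag had a peak 814 bp past it, at 40802090 in exon 2 of 9, with a score of 11.5 and rank 341 of 24961. That peak counts as a promoter peak by the limit of 1000 bp used here, but not by the annotation class.

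Further inside Hspa8 lay peaks that the gene name hid. The introns of Hspa8 carry small nucleolar RNA genes, which guide chemical modification of ribosomal RNA, and peaks near them took the name Snord14c (87 bases, 40803583 to 40803669). A site about midway along Hspa8 was listed in 4 of the 6 libraries. Seh1-flag had it at 40803273 with a score of 24.2, rank 48 of 24961. Chd4 had it in siSCR at 40803257 (score 17.4, rank 12 of 2606), in iKO at 40803181 (score 11.3, rank 149 of 21294) and in siSeh1 at 40803339 (score 10.9, rank 456 of 26935). All 4 positions fell within 158 bp, between 1905 and 2063 bp from the Hspa8 start. The siSCR and Seh1-flag positions were 16 bp apart. In iKO and Seh1-flag this site ranked above every peak named for the 10 genes. It stood in the control of the silencing as well as in siSeh1 and iKO, and it had no counterpart in the Ctrl lists. There the nearest peak to the Hspa8 start was 1840306 bp away for Chd4, in a list of only 1154 peaks, and 71044 bp for Seh1.

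A weaker site followed in 2 libraries. Seh1-flag had it at 40803894 (score 6.61, rank 4309) and siSeh1 at 40803917 (score 2.87, rank 19846), 23 bp apart and between Snord14c and Snord14d. The deposited annotation gives these 6 peaks as the promoter or the transcript end of Snord14c and so does not say whether they lie in an exon or an intron of Hspa8. Processed copies of Hspa8 exist elsewhere in the genome, and the sources used here do not say how reads that fit several places were treated. Their part in this site was not tested. The remaining peak named for Hspa8, in iKO at 40771251 (score 2.71), lay 30025 bp before it in exon 3 of 7 of Clmp, an adhesion protein gene.

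**Figure D1:**
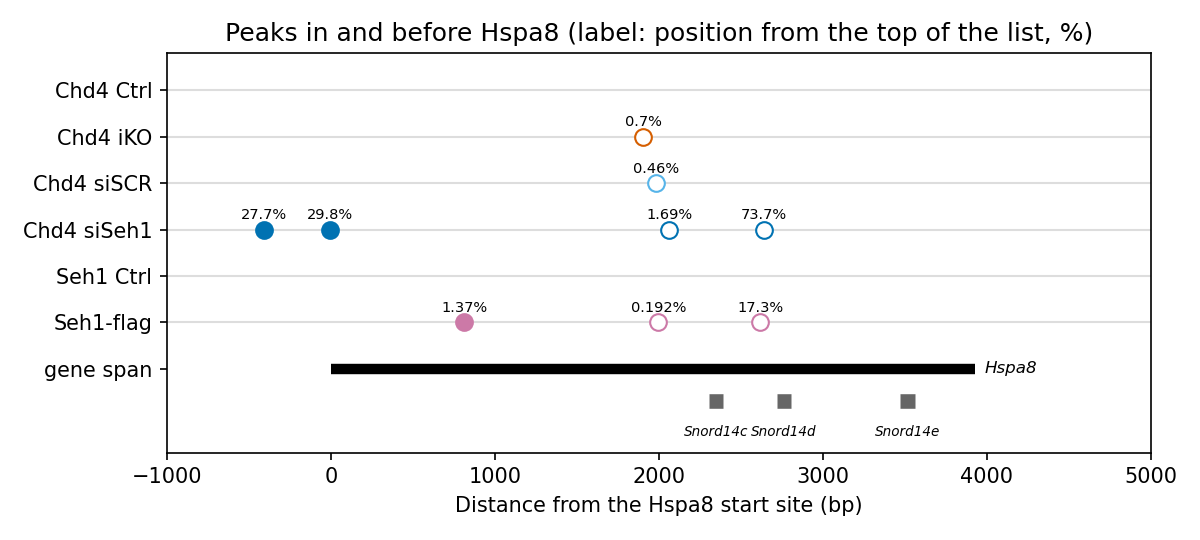
Peaks in and before Hspa8 by list (rows), against the distance from its start site in bp; filled points are named for Hspa8, open points for Snord14c, the black bar is the gene and grey bars are small nucleolar RNA genes. The label at each point is its place from the top of the list by score, and the site between 1905 and 2063 bp stands at 0.192 to 1.69% in 4 lists.

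Sites so widely listed were few over the whole siSCR list, but not among its highest scores. Of the 2606 siSCR peaks, 18 (0.691%) had an iKO, a siSeh1 and a Seh1-flag peak each within 240 bp, a count made after the Hspa8 site was seen. Among the 18 were the siSCR peaks of ranks 2, 5, 7, 8, 10, 12 (the Hspa8 site) and 15. At the rank of the Hspa8 site such sharing was therefore far more frequent than 0.691%. By class 12 of the 18 were intergenic and 4 in introns, and 2 were called promoter, the Hspa8 site and one at Pgk1, a glycolytic enzyme gene. On 1 unplaced scaffold lay 7 of them, all named for Pisd-ps3.

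Hspa4 and Hsph1 encode Hsp110 proteins, large relatives of Hsp70 that act as its exchange factors. Hspa4 (chromosome 11, 53259814 to 53300479, minus strand) was the one gene of the 10 with a Chd4 promoter peak in more than 1 list, against 3.58% of all protein-coding genes. In siSeh1 the peak lay 22 bp past the start site, at 53300457, with a score of 12.2 and rank 347 of 26935. The iKO peak lay 36 bp before the start, at 53300515, with a score of 4.89 and rank 1785 of 21294. The positions were 58 bp apart, at the ends of the capitals above. The nearest Chd4 peak of the control lists was 7289647 bp away in Ctrl and 1693573 bp in siSCR. Those lists are short (1154 and 2606 peaks), so long distances are common in them. Over the 10 genes the nearest Ctrl peak was from 118630 bp (Hsph1) to 7289647 bp (Hspa4) away, and the nearest siSCR peak from 1981 bp (Hspa8) to 1693573 bp (Hspa4). Seh1 was not listed at the Hspa4 promoter. The nearest Seh1-flag peak was in intron 16 of 18 of Hspa4, 36426 bp past the start (score 3.68, rank 18373 of 24961), and the nearest Seh1 Ctrl peak was 31205 bp before the start. A second siSeh1 peak named for Hspa4 lay 59104 bp past the start, beyond the end of the gene, in a simple repeat (53241375, score 5.41, rank 1905 of 26935).

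Hsph1 (chromosome 5, 149616843 to 149636498, minus strand) had a Chd4 promoter peak in siSeh1 alone. It lay at 149636493, with a score of 3.79 and rank 8027 of 26935. RefSeq gives Hsph1 several start sites: the peak was 157 bp before the one the deposited distance is measured from, at 149636336, and 5 bp past the outermost, at the end of the span. In the window shown above, which is set on the start at 149636336, the peak is upstream of the first heat shock element, whose first base is 33 bases before that start. The iKO list had a peak 17744 bp before the span (149654242, score 3.17), between genes. Seh1-flag had 3 peaks named for Hsph1. The highest, at 149625196 in intron 10 of 17, had a score of 7.72 and rank 2328 of 24961. Another, at 149637979 in a SINE repeat 1481 bp before the span (score 4.03; deposited distance 1643 bp), was the nearest peak outside the promoter limit, and the third, at 149601134, was in a simple repeat in an intron of Wdr95 (score 4.63).

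Hsp90aa1 and Hsp90ab1 encode the inducible and the constitutive cytosolic Hsp90. Hsp90aa1 (chromosome 12, 110691036 to 110696395, minus strand) had 1 peak, of Chd4 in iKO, 430 bp past the start at 110695965. It lay in intron 1 of 10 in a CpG island and had a score of 3.39, rank 10334 of 21294, at the list's median score of 3.39. In siSeh1 the nearest peak to the Hsp90aa1 start was 12699 bp away. Hsp90ab1 (chromosome 17, 45567778 to 45573261, minus strand) had 1 peak, of Seh1-flag, at 45576209 in a simple repeat 2948 bp before the start (score 4.93, rank 10990 of 24961). No Chd4 peak lay closer to the Hsp90ab1 start than the 9546 bp of siSeh1.

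Hsf1 (chromosome 15, 76477362 to 76501155, plus strand), the regulator of the family, had a Chd4 promoter peak in siSeh1. It lay at 76477311, 51 bp before the start, with a score of 8.14 and rank 794 of 26935. Bop1, a ribosome assembly gene, also lies within 1000 bp of this position, and the annotation names only the gene of the nearest start. In iKO the nearest peak to the Hsf1 start was 6853 bp away and named for Bop1. Seh1 Ctrl had a peak of 240 bp at 76493463 to 76493702, in a SINE repeat in intron 1 of 10, 16220 bp past the start and 16271 bp from the siSeh1 peak. It was the 1 peak that the Seh1 Ctrl list had for these 10 genes.

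The chaperonin genes and the J-domain genes had 1 named peak among them, and the share of all genes without a peak in any list was not computed. Hspd1, the barrel of the mitochondrial chaperonin (chromosome 1, 55077833 to 55088243, minus strand), had 1 named peak, in iKO at 55107672 in an LTR repeat 19429 bp before it (score 3.17). Hspe1, its lid (chromosome 1, 55088148 to 55091317), had none, and over the 6 lists no peak came closer to the start of either gene than that one. Dnaja1 (chromosome 4, 40722468 to 40734965) had its nearest peak 9193 bp away, in iKO, and Dnajb1 (chromosome 8, 83608175 to 83612653) 13570 bp away, in siSeh1. Both are J-domain partners of the Hsp70 proteins. Among the 6 genes whose windows were searched, Hsph1 had both a heat shock element and a Chd4 promoter peak, Hspd1, Hspe1 and Dnaja1 had the element alone, Hspa4 the peak alone, and Dnajb1 neither. Hspa8, Hsp90aa1, Hsp90ab1 and Hsf1 were not searched.

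**Figure D2:**
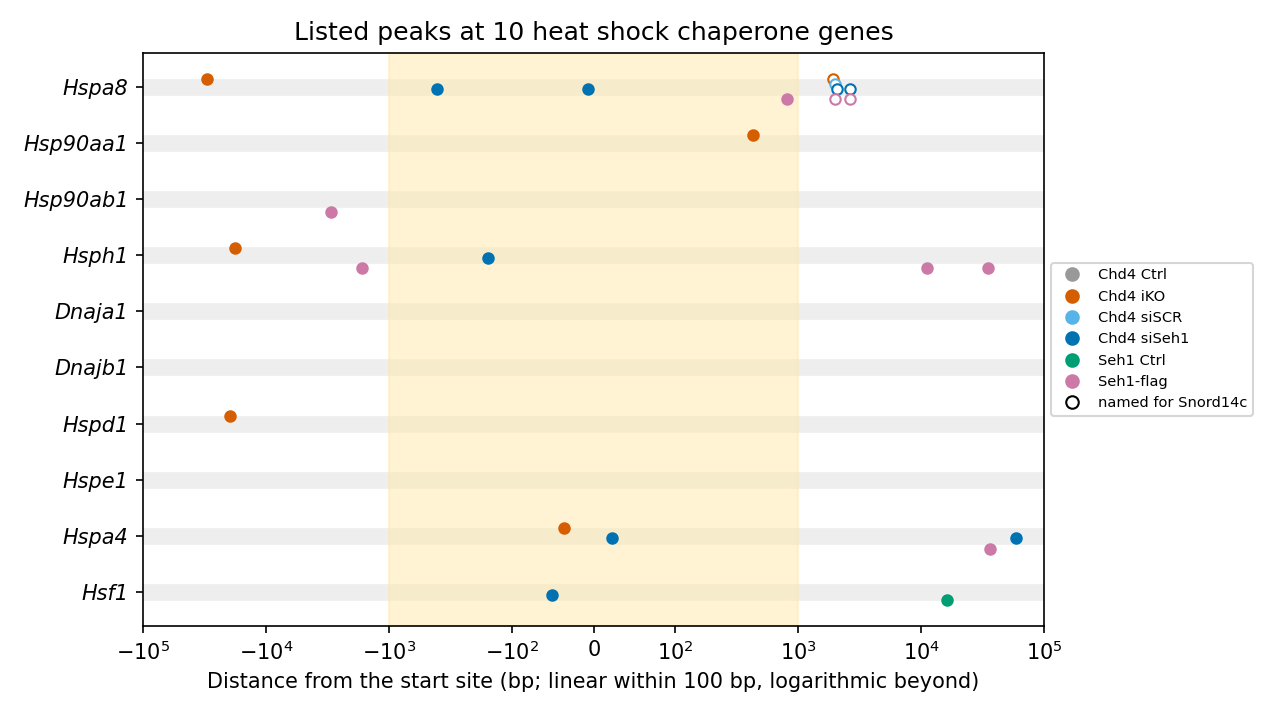
All 24 peaks named for the 10 genes (filled) or lying in Hspa8 under the name Snord14c (open), by list (colour), against the distance from the start site in bp on an axis that is linear within 100 bp and logarithmic beyond; the band marks the promoter limit of 1000 bp. Chd4 points of iKO and siSeh1 lie in the band at 5 genes, no Chd4 Ctrl point is drawn, and the rows of Dnaja1, Dnajb1 and Hspe1 are empty.

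Set side by side, 4 of the 10 genes (Hspa8, Hspa4, Hsph1 and Hsf1) carried Chd4 at the promoter in the siSeh1 list, where 11.8% of 21900 protein-coding genes had one. In iKO 2 did (Hspa4 and Hsp90aa1), where 5.18% of all genes had one. Chd4 had 0 of 10 in siSCR (1.63% of all genes) and 0 in Ctrl (0.0183%). Seh1 was listed within the limit at 1 of 10 genes through the tag (Hspa8; 1.33% of all genes) and at 0 in Ctrl (1.02%). All 4 siSeh1 genes therefore counted as gained over siSCR (10.5% of all genes) and both iKO genes as gained over Ctrl (5.18%), and none was lost. At these shares a list of 10 genes without a promoter peak in siSCR or Ctrl does not stand apart. For Hspa8 the gain refers to the promoter alone: siSCR had a Chd4 peak 1981 bp past its start, named for Snord14c (rank 12 of 2606). The genes were proposed with these results known, so no test is attached to the counts in siSeh1 and iKO.

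At any distance, some peak was named for 5 of the 10 genes in iKO (36.8% of all genes), 4 in siSeh1 (46.4%), 4 in Seh1-flag (38.9%), 1 in Seh1 Ctrl (34.2%), 0 in siSCR (7.47%) and 0 in Chd4 Ctrl (2.67%). These shares were near those of all genes or, in Seh1 Ctrl, below them. The number of peaks behind them moved with the settings. In iKO 5 named peaks became 3 by position, 2 with scores at or above the list's median and 0 in lists of equal length (1154 peaks). In Seh1-flag 6 became 3 at the median score and 1 at equal length, and in siSeh1 6 became 2 at equal length. In siSCR 0 became 1 by position, the site inside Hspa8. Of the 18 named peaks, 8 were promoter peaks and 10 lay farther away, and 6 of the 18 were in annotated repeats.

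**Figure D3:**
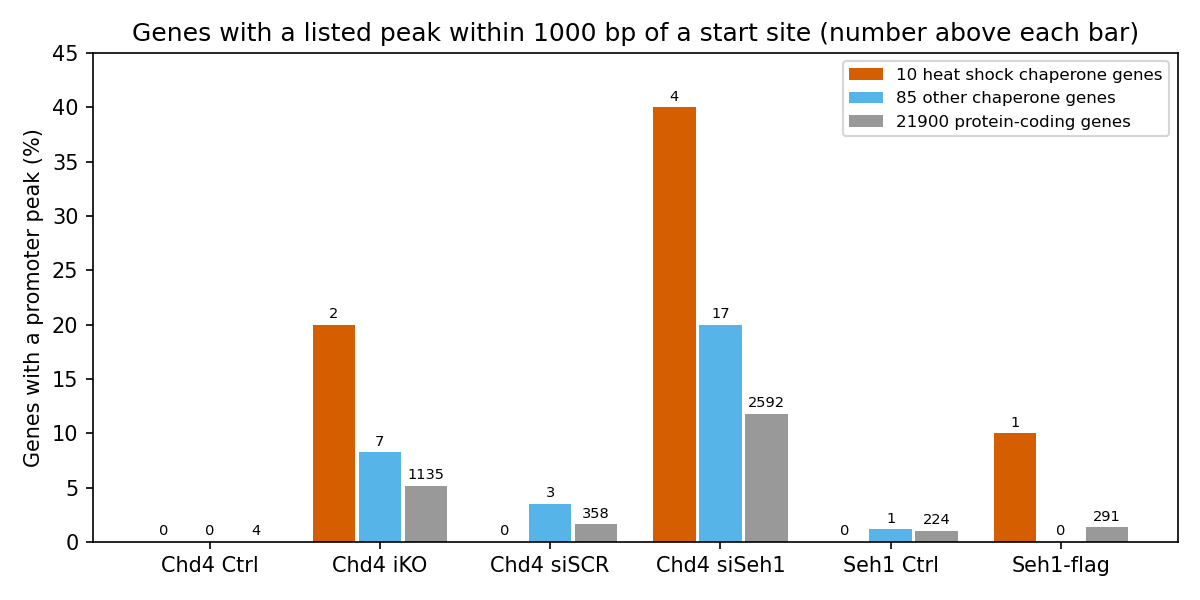
Percent of genes with a peak within 1000 bp of a start site in each list, for the 10 heat shock chaperone genes, 85 other chaperone genes and all 21900 protein-coding genes; the number above each bar is the count of genes. The bars of the 10 genes stand on 4 genes in siSeh1, 2 in iKO and 1 in Seh1-flag.

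Score order separated the promoter peaks of siSeh1 from each other. Those of Hspa4 and Hsf1 were in the top 1.29% and 2.95% of the list, and those of Hsph1 and Hspa8 between 27.7% and 29.8%. Among the 2815 siSeh1 promoter peaks these were ranks 289 and 675, against 1868 to 1927. Tied peaks share the lowest rank number, and the Hsph1 peak and the Hspa8 peak nearer the start tie at a score of 3.79. The 29.8% is therefore the top edge of that tie, and the number of peaks in it was not counted. All siSeh1 promoter peaks together had a median score of 5.07. In iKO Hspa4 stood at 8.38% and Hsp90aa1 at 48.5%. The length of the list moved with these counts: with every scored list reduced to its 1154 peaks of highest score, Hspa4 and Hsf1 kept a promoter peak in siSeh1, and no gene of the 10 had one in iKO. The share of all genes at that length was not computed.

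**Figure D4:**
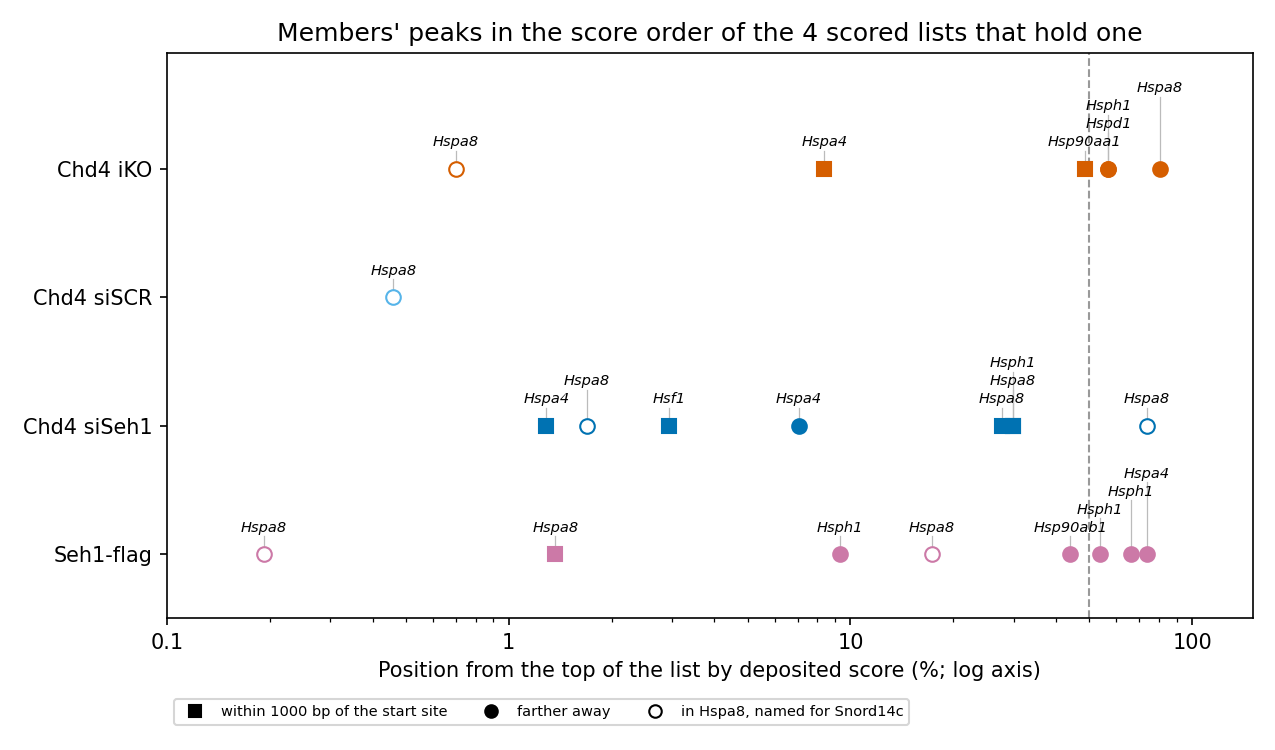
Place of each peak from the top of its list by deposited score, in percent on a log axis, for the 4 scored lists that hold one; squares lie within 1000 bp of the start site, filled circles farther away, open circles in Hspa8 under the name Snord14c, and the dashed line is the middle of a list. The open Hspa8 points are the leftmost of the iKO, siSCR and Seh1-flag lists.

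Other chaperones were read from a list of 85 genes of the cytosol and mitochondria: further Hsp70 and small heat shock proteins, J-domain proteins, exchange factors, Hsp90 cochaperones, the cytosolic chaperonin, prefoldin, mitochondrial proteases, further heat shock factors and polyubiquitin genes. Of these 85, siSeh1 had a Chd4 promoter peak at 17 (20.0%, against 11.8% of all protein-coding genes), iKO at 7 (8.24%, against 5.18%), siSCR at 3 (3.53%, against 1.63%) and Ctrl at 0 (against 0.0183%). At any distance the Chd4 shares of the 85 were below those of all genes. They were 36.5% in siSeh1 (against 46.4%), 24.7% in iKO (36.8%), 7.06% in siSCR (7.47%) and 1.18% in Ctrl (2.67%). Seh1 Ctrl had 16.5% (against 34.2%) and Seh1-flag 40.0% (38.9%). With scored lists reduced to 1154 peaks, siSeh1 had a promoter peak at 7 of the 85, iKO at 4 and siSCR at 3. The share of all genes in the reduced lists was not computed. In the full lists 7 of the 85 (8.24%) had one in 2 or more Chd4 lists, against 3.58% of all genes. Hspa2 and Dnajb5 (2.35% of the 85) had one in siSeh1, iKO and siSCR. No share of all genes was computed for 3 lists. Hspa2, an Hsp70 of male germ cells, had scores of 27.8 in siSeh1 (rank 25 of 26935), 9.38 in iKO and 5.47 in siSCR, at 76404257, 76404258 and 76404263 on chromosome 12, within 6 bp. Dnajb5, a J-domain protein, had scores of 14.4, 4.78 and 5.38, at 42949759, 42949760 and 42949785 on chromosome 4.

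Another 5 had one in iKO and siSeh1. Stip1 joins Hsp70 to Hsp90, and its scores were 3.46 in iKO and 11.2 in siSeh1. Fkbp5, an Hsp90 cochaperone of steroid receptors, had 9.11 and 10.1, and Bag4, an Hsp70 exchange factor, 5.31 and 13.3. Dnajb3, which lies inside the Ugt1a gene cluster, had 12.2 and 10.8, and Ubb, a polyubiquitin gene, had 5.64 and 5.41. In siSeh1 alone stood 10, and the 6 of highest score were Tcp1 of the cytosolic chaperonin (8.14), the mitochondrial Hsp70 gene Hspa9 (5.00), the exchange factor gene Bag3 (4.58), the inducible Hsp70 gene Hspa1b (4.58, in an exon), Bag1 (3.79) and the Hsp90 cochaperone gene Ptges3 (3.79). Hspa1b has a near-identical neighbour, Hspa1a, so which of the pair its reads came from is uncertain. Other genes lie within 1000 bp of the peaks at Hspa2, Bag4, Tcp1, Bag1, Hspb6 and Pfdn6, and the nearest start decided the name. Hspb6, a small heat shock protein gene, was the 1 listed in siSCR (score 4.86) and not in siSeh1. Seh1 had a promoter peak at Pfdn6, a prefoldin subunit, in Ctrl cells (1 of 85, against 1.02% of all genes) and at 0 of the 85 through the tag (against 1.33%). Within 2000 bp the order of these lists turned, with 2 in Ctrl and 7 through the tag. The share of all genes within 2000 bp was not computed, so these counts are not set against a background.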

How the data were processed

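Peaks of Chd4 and Seh1 were read from 6 deposited lists, 1 per library. Per the file headers, the authors annotated them with HOMER on mouse build mm10. The submitters' processing notes name Bowtie2 and HOMER without versions, and human builds, which the headers and mouse gene names contradict. The sources used here do not give the peak caller, threshold, input or pooling. The deposited peak score has no stated scale and ranked peaks within a list only (ties share the lowest rank). Distances to the TSS are those deposited. A promoter peak lay within 1000 bp of the TSS, and a site was shared when centres were at most 240 bp apart. In a second assignment a peak belonged to a gene when it lay in its span or up to 1000 bp before it. Gene spans, and the 21900 protein-coding genes used as background, were taken from RefSeq (GRCm38.p6), whose table matched 99.9% of gene identifiers. Nearest peaks were measured from the end of that span where transcription starts. Host genes of exon and intron peaks were found by transcript accession. Python 3.11.15, pandas 2.3.3 and numpy 2.4.6 were used, and the code was tested on simulated peaks.

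The members and lists were chosen with earlier results of these data known. All 10 genes are named. Of the 85 others, those in at least 2 Chd4 lists are named, then up to 6 per list by rank. Pgk1, Pisd-ps3, Clmp, Wdr95, Bop1 and Snord14c were named after their values were seen. Alternatives changed the promoter limit, the promoter definition, the assignment, the score minimum, the list length and the distance for a shared site.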

Additional observations from a re-analysis of the deposited data

How the results depend on the processing

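Of 81 recomputed values for 26 counts, 61 stayed within 1.5 times the reported count and 20 did not. Many of the 61 were counts of 0 that stayed 0, among them all those of Chd4 Ctrl. Several of the settings can only remove peaks, and the Chd4 Ctrl list already had 1154. The 61 therefore do not measure how stable the other counts are. With every scored list reduced to 1154 peaks, the 10 genes had promoter peaks at 2 genes in siSeh1 and 0 in iKO, and 2, 0 and 1 named peaks in siSeh1, iKO and Seh1-flag. With scores at or above the list's median, named peaks numbered 2 in iKO and 3 in Seh1-flag, and the iKO exon peak dropped out. By the promoter annotation class, 1 gene remained in iKO and 0 in Seh1-flag. Seh1-flag had 0 within 500 bp and 2 within 2000 bp. By position instead of name, iKO held 3 peaks and siSCR 1, and shared pairs rose from 1 to 8, an alternative chosen after seeing the data. Of the 85 other chaperones, within 2000 bp Seh1 Ctrl had 2 and Seh1-flag 7, and in lists of equal length, also chosen after seeing the data, siSeh1 had 7 and iKO 4. The shares of all protein-coding genes were not recomputed under any of these settings. The causes were not tested beyond what each setting leaves out. No paired analysis was possible because each group has 1 library. Depth is unknown, so an unlisted site is not shown to be unbound. The Seh1 Ctrl list has no scores, so its peaks could not be ranked, filtered by score or reduced.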
